A study of Bos grunniens with 18 samples.

Results

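Fc receptors are proteins that bind the constant part of antibodies, and 7 of their genes were followed in the blood of yak cows through 3 reproductive stages: *FCGRT*, *FCER1G*, *FCGR1A*, *FCGR2B*, *FCMR*, *FCRLA* and *TRIM21*. The members were the rows of the deposited gene table that carry one of these names, which held for 5 of the 7 names and so for 5 of the 20607 genes of the table. *FCER1G* and *FCGR2B* were not analysed here, because no row of the table used here carries either name. Rows without a name that carry Fc gamma receptor annotation are given among the other observations. *FCGRT* was selected on its lower level at estrus than at anestrus in these same libraries, and the other names were chosen by their kinship with it while earlier results of these data were known. The stage values of all 5 genes are therefore given as a description, without a p-value. All 5 genes passed the filter on low counts, with 14508 genes tested in all.

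Whole blood of adult female yaks aged 4 to 8 years was sequenced as polyadenylated RNA in 18 libraries, 6 at anestrus (Y-A), 6 at estrus (Y-E) and 6 at pregnancy (Y-P). The estrus of these animals was not spontaneous, since it had been synchronised with a progesterone pessary followed by PGF2α and GnRH, and each cow was bled at successive stages. Libraries are numbered 1 to 6 within a stage, and a number was taken to mark 1 cow. The labels name no batch, so a batch that follows the stage cannot be told apart from the stage. The libraries held 30247267 to 48401076 counts. Y-E replicate 6 stood apart from the other Y-E libraries: hemoglobin genes took 8.36% of its counts, against 0.0899% to 0.713% in the other 5, 3.10% to 16.7% at anestrus and 0.0272% to 0.376% at pregnancy. Of the white cells, defining markers of neutrophils (*S100A9*), monocytes (*CD68*), B cells (*CD79A*) and T cells (*CD3D*) were all among the genes tested. Whole blood is a mixture, so that fewer cells of a type and less RNA per cell cannot be told apart.

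The neonatal Fc receptor is the best known member of the group for reproduction. Its heavy chain is encoded by *FCGRT*, pairs with beta-2 microglobulin, binds IgG in the acid of the endosome and returns it to the cell surface, which spares IgG and albumin from breakdown. Monocytes and neutrophils are among the blood cells that make it. *FCGR1A* encodes the high-affinity IgG receptor CD64 of monocytes and activated neutrophils, which signals through a partner chain with an activating motif. *FCMR* encodes the receptor for IgM on lymphocytes, and *FCRLA* an Fc receptor-like protein that stays inside B cells. *TRIM21* encodes a ubiquitin ligase of the cytosol that binds the antibody on pathogens that have entered the cell.

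*FCGRT* (ENSBGRG00000024262) lies on the minus strand of chromosome 20 at 59131217 to 59138481 in the Ensembl *Bos grunniens* annotation that the files use. In CPM, which are counts scaled to a common library size, here after TMM normalisation, its levels in Y-A replicates 1 to 6 were 143, 162, 144, 121, 114 and 144. In Y-E replicates 1 to 6 they were 66.7, 57.8, 76.1, 67.6, 61.8 and 69.5, so the highest estrus library lay below the lowest anestrus library. In Y-P replicates 1 to 6 they were 82.5, 115, 152, 74.2, 106 and 121, spread from inside the range of Y-E to inside that of Y-A. The stage means were 138 ± 17.4 CPM at anestrus, 66.6 ± 6.33 CPM at estrus and 108 ± 28.0 CPM at pregnancy (SD, n = 6 each). The order of the stages was thus Y-A, Y-P and Y-E, with Y-P overlapping both Y-A and, through replicate 4, Y-E.

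**Figure D1:**
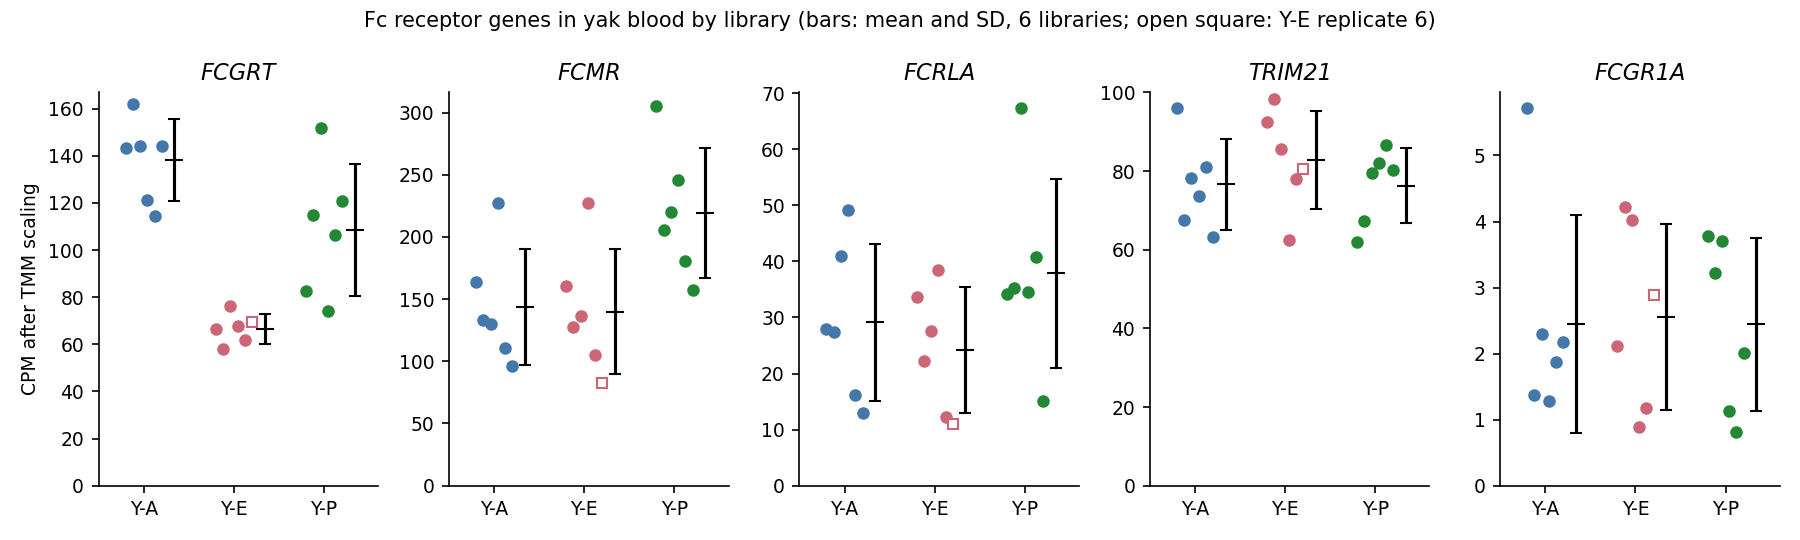
Level of each Fc receptor gene in CPM after TMM scaling (vertical axis, from 0) in each of the 18 libraries, by stage, with the mean and SD of 6 libraries beside the points and Y-E replicate 6 as an open square. The 6 *FCGRT* values at estrus (57.8 to 76.1) all lie below the 6 at anestrus (114 to 162), while the stages overlap for *TRIM21* and *FCGR1A*.

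Between estrus and anestrus, *FCGRT* differed by −1.05 ± 0.14 (SE) on the log2 scale (Y-E vs. Y-A), which is 2.07-fold lower at estrus. The level was lower at estrus in 6 of 6 replicate numbers, by 0.84 to 1.49 on the log2 scale. At an adjusted p under 0.05 with edgeR's quasi-likelihood test, 0.0207% of all tested genes were called in this comparison, and 0.0138% when a change of at least 1 on the log2 scale, in either direction, was also required. *FCGRT* was 1 of only 3 genes called, the contrast being the one it was selected on. The others were *PDK4*, a kinase that restrains the entry of pyruvate into the mitochondria, and ENSBGRG00000008216, a gene without a symbol that is annotated as an acyltransferase of fatty acid breakdown. They are named because they were so few. *PDK4* was at 59.5 ± 11.5 CPM at anestrus, 24.7 ± 4.68 CPM at estrus and 32.9 ± 8.97 CPM at pregnancy (SD, n = 6 each), and ENSBGRG00000008216 at 36.9 ± 4.76, 19.7 ± 2.30 and 36.3 ± 3.7 CPM.

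Pregnancy lay above estrus for *FCGRT*. The log2 fold change of Y-P vs. Y-E was 0.70 ± 0.14 (SE), a 1.63-fold higher level, and the Y-P library was the higher one in 6 of 6 replicate numbers. Of the 6 Y-P libraries, 5 exceeded every Y-E library, and the exception was Y-P replicate 4 at 74.2 CPM. Against anestrus, *FCGRT* at pregnancy differed by −0.35 ± 0.14 (SE) on the log2 scale, with 5 of 6 numbers lower and 3 of 6 Y-P libraries below every Y-A library. Leaving out each library in turn moved these values only from −1.10 to −1.0 for Y-E vs. Y-A, from 0.58 to 0.79 for Y-P vs. Y-E and from −0.47 to −0.26 for Y-P vs. Y-A. Without Y-E replicate 6, whose *FCGRT* level of 69.5 CPM fell inside the range of the other 5 libraries, the first 2 values were −1.07 and 0.72. The 3 comparisons share libraries in pairs, so they are not independent of one another.

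**Figure D2:**
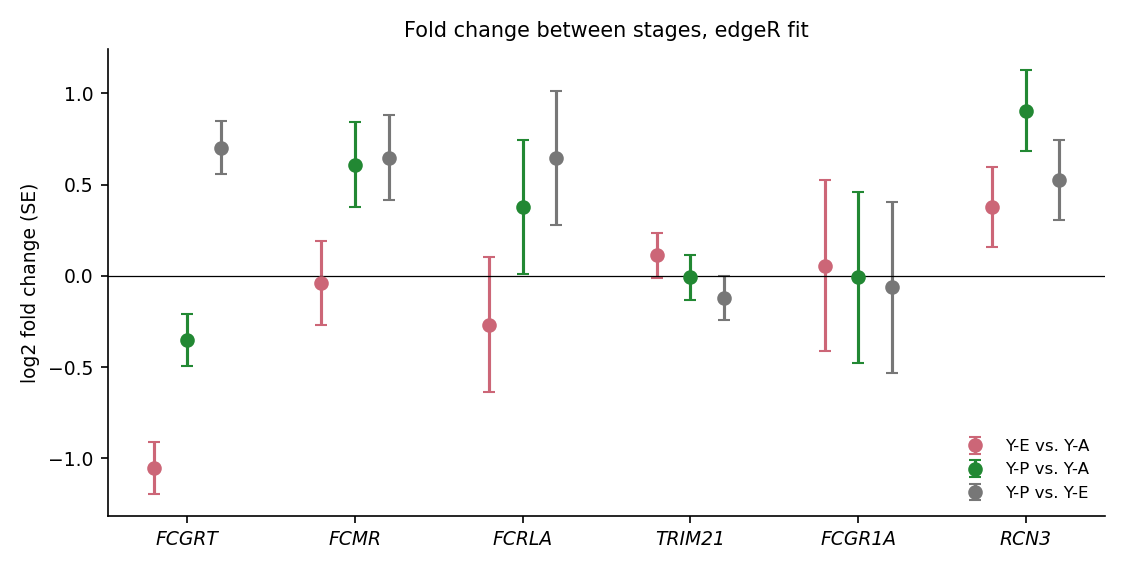
Log2 fold change (vertical axis) with its SE from the edgeR fit for the 5 genes and for *RCN3*, in each of the 3 comparisons. *FCGRT* lies at −1.05 in Y-E vs. Y-A and at 0.70 in Y-P vs. Y-E, while *FCMR* lies near 0 in the first and above 0.6 in both comparisons with pregnancy.

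The last 399 bases of *FCGRT* coincide with the start of the neighbouring gene *RCN3*, which encodes a calcium-binding protein of the endoplasmic reticulum. *RCN3* (ENSBGRG00000024220) lies at 59119839 to 59131615 on the same strand, so that reads of the shared stretch cannot be assigned by strand. Its level followed another course than *FCGRT*, with 11.1 ± 3.20 CPM at anestrus, 14.4 ± 3.28 CPM at estrus and 20.7 ± 5.16 CPM at pregnancy (SD, n = 6 each). *RCN3* rose in Y-P vs. Y-A, by 0.91 ± 0.22 (SE) on the log2 scale (edgeR, adjusted p = 0.0245). It did not pass in Y-E vs. Y-A, with 0.38 ± 0.22 (edgeR, adjusted p = 0.898), nor in Y-P vs. Y-E, with 0.53 ± 0.22 (edgeR, adjusted p = 0.114). The last comparison passed when the replicate number was taken as a block (edgeR, adjusted p = 0.0413), at 0.52 on the log2 scale. Across the 18 libraries, which share their stages, the Pearson correlation of log2 levels between *RCN3* and *FCGRT* was −0.086.

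Markers of myeloid cells and of red cells are given beside *FCGRT*. The summed level of 7 of the 10 neutrophil markers that have a row had a median of 6146 CPM at anestrus (range 4503 to 10299), 11183 CPM at estrus (5875 to 13606) and 4443 CPM at pregnancy (3530 to 6907). The median of that sum was highest at estrus, the stage at which *FCGRT* was lowest, and the ranges overlapped. For 8 of the 10 monocyte markers the medians were 1235 CPM at anestrus (950 to 1863), 1468 CPM at estrus (918 to 2194) and 1030 CPM at pregnancy (653 to 1622). No marker of either list passed with edgeR in Y-E vs. Y-A, although at an unadjusted p under 0.05 there were 2 higher neutrophil markers and 1 higher monocyte marker, and DESeq2 called 2 neutrophil markers as higher. Without Y-E replicate 6, edgeR called 1 of 7 neutrophil markers as higher there. With all libraries, 4 of 6 tested neutrophil markers and 1 of 8 monocyte markers fell in Y-P vs. Y-E, beside 8.68% of all tested genes. The monocyte count was close to that share and says nothing particular to that list. *CSF3R*, the receptor of the neutrophil growth factor, fell by 1.09 ± 0.16 (SE) on the log2 scale (edgeR, adjusted p = 0.000426), and *CD68*, of the lysosomes of monocytes, by 0.79 ± 0.20 (edgeR, adjusted p = 0.0144). The 5 reticulocyte markers summed to a median of 1999 CPM at anestrus (604 to 11763), 228 CPM at estrus (161 to 5089) and 143 CPM at pregnancy (92.6 to 179). Y-E replicate 6 held the 5089 CPM. The *FCGRT* level of this 1 library was 69.5 CPM, and that of the other Y-E libraries was 57.8 to 76.1 CPM. The NK cell markers, 4 of 7 with a row, had medians in the order of *FCGRT*, at 220 CPM at anestrus (123 to 261), 202 CPM at estrus (112 to 300) and 210 CPM at pregnancy (174 to 288), with overlapping ranges. The part of these cells in the level of *FCGRT* was not tested further.

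Relations to the cell markers were also followed inside each stage, for 4 pairs of gene and list chosen after the values were seen, 12 relations in all. *FCGRT* and the neutrophil sum gave Pearson r of −0.51 at anestrus, 0.052 at estrus and 0.78 at pregnancy (n = 6 each, exact permutation p = 0.300, 0.918 and 0.0611, two-sided). Spearman rho was −0.37, 0.029 and 0.49 (exact permutation p = 0.497, 1 and 0.356), and r without the 2 libraries farthest from the median was 0.16, 0.91 and −0.62. With the monocyte sum, r was 0.093, 0.22 and 0.67 (exact permutation p = 0.850, 0.701 and 0.142) and rho −0.029, 0.20 and 0.89 (exact permutation p = 1, 0.714 and 0.0333), with r of −0.52, 0.30 and 0.91 without those 2 libraries. None of these 6 relations passed after Benjamini-Hochberg adjustment over the 12, where the smallest adjusted value was 0.122 for r and 0.10 for rho.

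*FCMR* (ENSBGRG00000017897, chromosome 14, minus strand, 87424412 to 87445007) showed the other course, with its highest levels at pregnancy. Its levels in replicates 1 to 6 were 164, 133, 130, 227, 111 and 96.2 CPM at anestrus. They were 160, 128, 136, 227, 105 and 82.6 CPM at estrus, nearly the same figures number by number. At pregnancy they were 305, 205, 220, 245, 181 and 157 CPM, higher than both other stages in 6 of 6 numbers. The means were 144 ± 46.8, 140 ± 50.4 and 219 ± 52.1 CPM in Y-A, Y-E and Y-P (SD, n = 6 each). The groups overlapped, since only 2 of the 6 Y-P libraries exceeded every library of Y-A, and 2 exceeded every library of Y-E.

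The log2 fold changes of *FCMR* were −0.04 ± 0.23 (SE) in Y-E vs. Y-A, 0.61 ± 0.23 in Y-P vs. Y-A and 0.65 ± 0.23 in Y-P vs. Y-E. Taking the replicate number as a block, the last 2 became 0.64 ± 0.11 and 0.70 ± 0.11. Leaving out Y-E replicate 6, the lowest of the 18 libraries for this gene, gave 0.53 ± 0.23 for Y-P vs. Y-E without the block. Without the block, 0 of the 5 genes were called in Y-P vs. Y-A, where 5.83% of all tested genes were, 2.22% as higher and 3.61% as lower. In Y-P vs. Y-E, 1 of the 5 genes was called, which was *FCGRT*, beside 14.4% of all tested genes, 5.77% as higher and 8.68% as lower. With the fold threshold of the study as well, 0 of the 5 were called in these comparisons, beside 1.43% and 2.67% of all tested genes. With the block, *FCMR* was called in both, where 8.84% and 18% of all genes were, and it was called also with Y-E replicate 6 left out of the blocked fit. In Y-E vs. Y-A the block called 0.0965% of all genes, and *FCGRT* was again the one member among them.

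**Figure D3:**
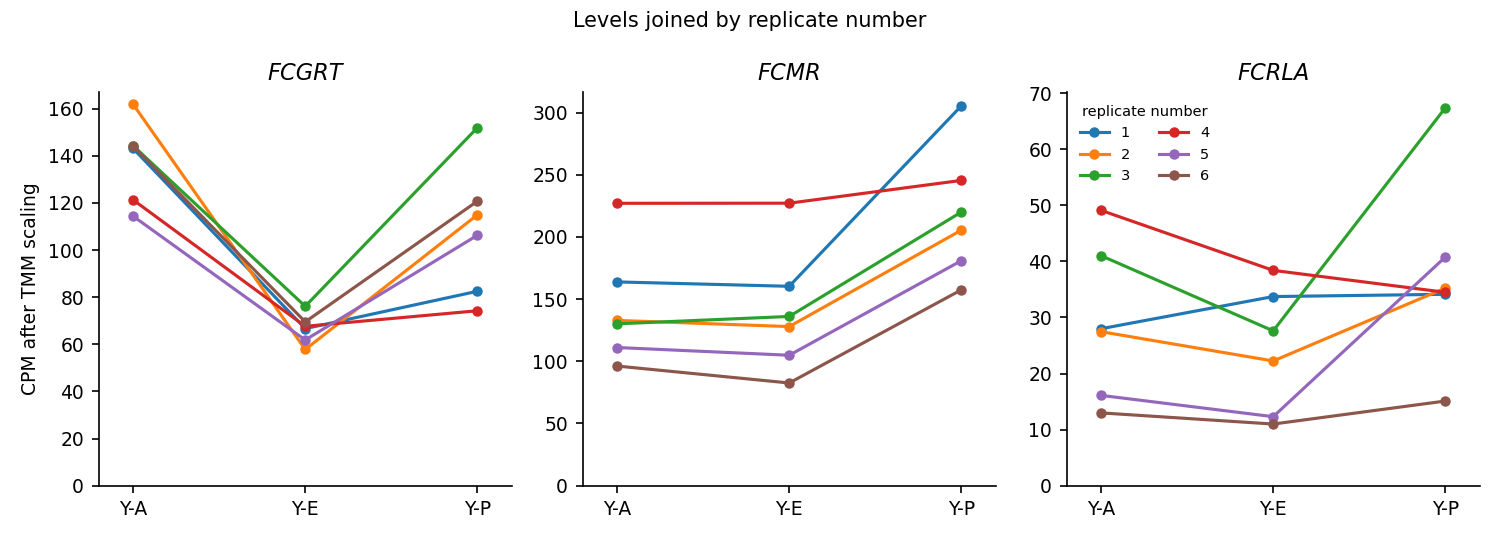
Level in CPM after TMM scaling (vertical axis, from 0) of *FCGRT*, *FCMR* and *FCRLA* at the 3 stages, with the libraries of the same replicate number joined by a line. All 6 lines of *FCGRT* dip at estrus, and those of *FCMR* run nearly level from Y-A to Y-E and end higher at Y-P.

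The replicate numbers kept their order for *FCMR*. Between Y-A and Y-E, its levels over the 6 numbers had a Pearson r of 0.989 (n = 6, exact permutation p = 0.00278, two-sided, adjusted p = 0.0417 over the 15 relations of 5 genes and 3 pairs of stages). Spearman rho was 0.943 (exact permutation p = 0.0167, adjusted p = 0.0833), and r was 0.969 without the 2 numbers farthest from the Y-A median. Between Y-A and Y-P, r was 0.785 and rho 0.886 (exact permutation p = 0.0611 and 0.0333, adjusted p = 0.183 and 0.10), and r was 0.969 without the 2 farthest. Between Y-E and Y-P, r was 0.811 and rho 0.943 (exact permutation p = 0.0514 and 0.0167, adjusted p = 0.183 and 0.0833), and r was 0.949 without the 2 farthest. For *FCGRT* the numbers gave no such order, with r of −0.048 between Y-A and Y-E, 0.421 between Y-A and Y-P and 0.290 between Y-E and Y-P (n = 6, exact permutation p = 0.932, 0.404 and 0.582). Spearman's rho was 0.086, 0.657 and 0.429 (exact permutation p = 0.919, 0.175 and 0.419), and r without the 2 farthest numbers was −0.850, 0.060 and −0.062.

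*FCRLA* (ENSBGRG00000001948, chromosome 3, plus strand, 9688785 to 9696710) was lower than *FCMR* and more variable. Its levels in replicates 1 to 6 were 28.0, 27.5, 41.0, 49.1, 16.1 and 13.0 CPM at anestrus. They were 33.7, 22.2, 27.6, 38.4, 12.3 and 11 CPM at estrus, and 34.1, 35.2, 67.4, 34.5, 40.8 and 15.1 CPM at pregnancy. The 3 ranges overlapped, and numbers 5 and 6 were the lowest in both Y-A and Y-E. The means were 29.1 ± 14.0, 24.2 ± 11.2 and 37.9 ± 16.9 CPM in Y-A, Y-E and Y-P (SD, n = 6 each). Its log2 fold changes were −0.27 ± 0.37 (SE) in Y-E vs. Y-A, 0.38 ± 0.37 in Y-P vs. Y-A and 0.65 ± 0.37 in Y-P vs. Y-E. The blocked fit gave 0.69 ± 0.21 for the last and called it, but not when Y-E replicate 6 was left out, where the value was 0.72 ± 0.24. Between Y-A and Y-E the 6 numbers had r of 0.928 and rho of 0.943 (exact permutation p = 0.0208 and 0.0167, adjusted p = 0.156 and 0.0833 over the 15 relations), and r was 0.819 without the 2 numbers farthest from the median.

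The B cell markers moved with *FCRLA* at anestrus and at estrus, and with *FCMR* at estrus. The numbers were taken to mark the same cows at each stage, so the relations at different stages are not independent of one another. The adjusted p-values do not allow for this, nor for the choice of the pairs after the values were seen. The summed level of 7 of the 8 B cell markers had a median of 1243 CPM at anestrus (range 647 to 1952), 1075 CPM at estrus (543 to 1705) and 1430 CPM at pregnancy (739 to 2151), and no single B cell marker of 7 passed with edgeR without the block. With the block, 2 of the 7 rose in Y-P vs. Y-A and 3 in Y-P vs. Y-E (1 and 3 with Y-E replicate 6 left out). Over all libraries the block called 481 and 1047 of all 14508 tested genes higher, in that order. Without the block, at an unadjusted p under 0.05, 1 marker was higher in Y-P vs. Y-A and 2 in Y-P vs. Y-E, and DESeq2 called 2 as higher in the latter. At anestrus, *FCRLA* and this sum had r of 0.996 and rho of 0.943 (n = 6, exact permutation p = 0.00278 and 0.0167, adjusted p = 0.0111 and 0.0667 over the 12 relations), and r was 0.990 without the 2 libraries farthest from the median. At estrus, r was 0.982 and rho 1 (exact permutation p = 0.00139 and 0.00278, adjusted p = 0.00833 and 0.0167), and r was 0.985 without those 2. At pregnancy, r was 0.934 and rho 0.60 (exact permutation p = 0.0472 and 0.242, adjusted p = 0.113 and 0.483). That relation rests on its 2 extreme libraries, without which r was −0.70.

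For *FCMR*, r with the B cell sum was 0.836 at anestrus, 0.970 at estrus and 0.444 at pregnancy (n = 6 each, exact permutation p = 0.0319, 0.00139 and 0.346, adjusted p = 0.0958, 0.00833 and 0.461). Spearman's rho was 0.771, 1 and 0.543 (exact permutation p = 0.103, 0.00278 and 0.297, adjusted p = 0.247, 0.0167 and 0.510). Without the 2 libraries farthest from the median, r was 0.382, 0.956 and 0.483. The difference between the stages in these correlations was not tested. Among the markers of the other lymphocytes, *CD3G* of the T cell receptor complex rose in Y-P vs. Y-A by 0.73 ± 0.16 (edgeR, adjusted p = 0.0139) and in Y-P vs. Y-E by 0.88 ± 0.16 (edgeR, adjusted p = 0.00173). It was 1 of the 2 T cell markers, of 6 tested, that passed in each without the block. Without the block, 2.22% and 5.77% of all tested genes were called higher in these comparisons. With the block, 4 of the 6 rose in Y-P vs. Y-A and 3 in Y-P vs. Y-E. Of all 14508 tested genes, the block called 481 and 1047 higher, in that order. The summed T cell markers had a median of 843 CPM at anestrus, 907 CPM at estrus and 1159 CPM at pregnancy. The part of either cell type in the levels of *FCMR* was not tested.

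**Figure D4:**
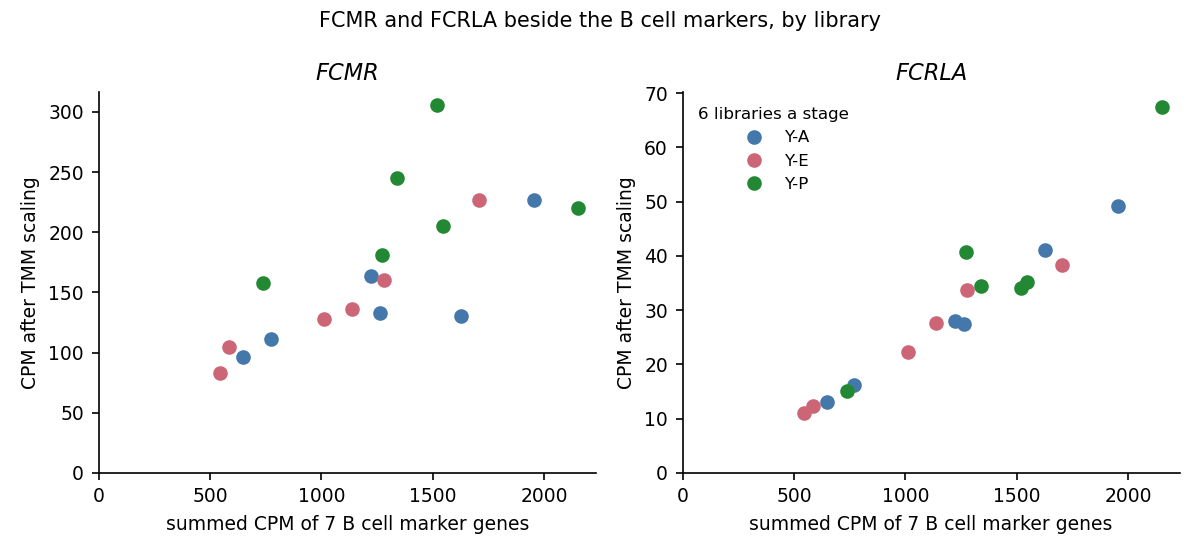
Level of *FCMR* and of *FCRLA* in CPM after TMM scaling (vertical axes) against the summed CPM of 7 B cell marker genes (horizontal axes) in the 18 libraries, coloured by stage. The *FCRLA* points of Y-A and Y-E lie close to a line (r of 0.996 and 0.982), while the 6 *FCMR* points of Y-P lie at 157 CPM or higher over the whole range of marker sums.

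*TRIM21* (ENSBGRG00000012893, chromosome 13, minus strand, 35990968 to 36002114) stayed within a narrow band. Its levels in replicates 1 to 6 were 96.0, 67.5, 78.3, 73.6, 81.1 and 63.2 CPM at anestrus, 92.5, 98.3, 85.5, 62.6, 78.0 and 80.6 CPM at estrus, and 61.8, 67.4, 79.5, 81.9, 86.7 and 80.2 CPM at pregnancy. The ranges of the 3 stages overlapped almost entirely. The means were 76.6 ± 11.6, 82.9 ± 12.5 and 76.3 ± 9.52 CPM (SD, n = 6 each). The log2 fold changes were 0.11 in Y-E vs. Y-A, −0.01 in Y-P vs. Y-A and −0.12 in Y-P vs. Y-E, each with an SE of 0.12. It was the least variable of the 5 genes over the 18 libraries, with a coefficient of variation of 14.0%, against 33.8% for *FCGRT*, 35.9% for *FCMR*, 47.9% for *FCRLA* and 55.5% for *FCGR1A*.

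*FCGR1A* (ENSBGRG00000015945, chromosome 3, plus strand, 20276620 to 20329595) was close to the lower end of what the libraries resolve, with 32 to 204 counts a library. Its levels in replicates 1 to 6 were 5.72, 1.37, 2.30, 1.28, 1.87 and 2.17 CPM at anestrus, 2.12, 4.22, 4.03, 0.886, 1.18 and 2.88 CPM at estrus, and 3.79, 3.22, 3.71, 1.13, 0.806 and 2.01 CPM at pregnancy. Libraries differed several times over inside each stage, more than the stages did. The means were 2.45 ± 1.65, 2.55 ± 1.41 and 2.44 ± 1.31 CPM (SD, n = 6 each), and the log2 fold changes lay between −0.06 and 0.06, each with an SE of 0.47. With such errors, a stage difference of the size seen for *FCGRT* in Y-P vs. Y-E could not have been told from 0. The gene spans *H2BC18*, *H3C14* and ENSBGRG00000016136 on the opposite strand, and none of these exceeded 24 counts in any library.

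Levels of different genes were compared in FPKM, which is scaled by gene length. At anestrus, *FCMR* was at 56.1 ± 19.1 FPKM and *FCGRT* at 52.1 ± 8.30 FPKM (SD, n = 6 each), a gap smaller than the spread of either gene. *TRIM21* followed at 34.8 ± 4.06 FPKM, *FCRLA* at 9.63 ± 4.94 FPKM and *FCGR1A* at 1.42 ± 0.85 FPKM. At estrus, *FCGRT* at 25.3 ± 2.58 FPKM stood below *TRIM21* at 38.1 ± 4.86 FPKM, with no overlap of the 2 genes between libraries. At pregnancy, *FCMR* reached 99.0 ± 28.0 FPKM, with *FCGRT* at 46.4 ± 9.42 FPKM and *TRIM21* at 40.1 ± 5.83 FPKM less than 1 SD of *FCGRT* apart. *FCRLA* and *FCGR1A* kept the last places at every stage. In these per-length values the gap of *FCGRT* between Y-A and Y-P was smaller than in CPM. The median of all genes on the log2(FPKM + 1) scale was itself shifted by 0.15 between those stages.

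The genes whose log2 levels over the 18 libraries were most like those of *FCGRT* were ENSBGRG00000008216 with a Pearson r of 0.849, *ZDHHC9* with 0.770, *CD36* with 0.742, ENSBGRG00000026591 with 0.726 and *PRKAR2A* with 0.725. *ZDHHC9* encodes a palmitoyl transferase, *CD36* a scavenger receptor that takes up fatty acids, and *PRKAR2A* a regulatory subunit of protein kinase A. *CD36* was at a mean of only 0.199 FPKM. These values rest on the stages the libraries share. After the stage means were subtracted, the 5 highest were *TPPP3* with 0.840, *CBR1* with 0.817, *SLAMF8* with 0.804, *PHKA1* with 0.791 and *SDHA* with 0.784 (*SLAMF8* at a mean of only 0.139 FPKM), so that no gene stood in both groups of 5. The correlations are a description over 18 libraries, the highest among all tested genes.

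Further Fc receptors were measured through a list of 20 names, which leaves out rows without a gene name. Of the 20, 9 had a row and were tested. None passed in any of the 3 comparisons with edgeR and no block, where the medians of the 9 were 0.16 in Y-E vs. Y-A, 0.39 in Y-P vs. Y-A and 0.30 in Y-P vs. Y-E, beside −0.01, 0.03 and 0.04 over all tested genes. Named for their low counts, *FCRLB*, *PIGR* and *FCRL6* had at most 24, 38 and 61 counts in a library and reached down to 0. The medians include these genes, and their lack of a call says little. At an unadjusted p under 0.05, 0 of the 9 stood in Y-E vs. Y-A, 2 were higher in Y-P vs. Y-A and 1 in Y-P vs. Y-E, and DESeq2 called 1 as higher in the last. The block changed the call of *FCER1A*, the IgE-binding chain of the receptor of mast cells and basophils, which had 13.6 ± 6.37 CPM at anestrus, 17.7 ± 4.30 CPM at estrus and 21.8 ± 2.46 CPM at pregnancy (SD, n = 6 each). With the block its Y-P vs. Y-A value of 0.79 passed (edgeR, adjusted p = 0.0329, and 0.111 without the block). *FCRL1*, an Fc receptor-like protein of the B cell surface, had 26.1 ± 5.73, 22.1 ± 8.14 and 34.1 ± 8.61 CPM in the same order. Its Y-P vs. Y-E value of 0.66 passed with the block (edgeR, adjusted p = 0.00343, and 0.0796 without it). *FCER2*, the low-affinity IgE receptor CD23 of B cells, was the most abundant at a mean of 39.0 FPKM and had log2 fold changes of −0.07, 0.24 and 0.32.

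Of the genes that serve the traffic of the neonatal Fc receptor, 1 passed in the edgeR fit over all libraries, and only in Y-P vs. Y-E. Of 18 names, 9 had a row, and 0 passed with edgeR in Y-E vs. Y-A and in Y-P vs. Y-A, beside 0.0207% and 5.83% of all tested genes. There 1 was higher and 1 lower, in that order, at an unadjusted p under 0.05, and DESeq2 called 0. In Y-P vs. Y-E, 1 of the 9 passed, beside 8.68% of all tested genes called lower. This count was close to that share and says nothing particular to that list. The gene was *RAB11FIP1*, an adaptor of the recycling endosome, which fell by 0.52 ± 0.15 (SE) on the log2 scale (edgeR, adjusted p = 0.0286). At an unadjusted p under 0.05, 6 of the 9 were lower and 0 higher there, and 4246 of the 14508 tested genes stood in either direction. *RAB11FIP1* did not pass under scaling by library size alone. Of the list, 3 genes were lower with DESeq2, 3 with edgeR without Y-E replicate 6 and 2 with the block. The median of the 9 in that comparison was −0.27, beside 0.04 over all tested genes. *RAB7A*, the GTPase of late endosomes, had 0.33 ± 0.11 in Y-E vs. Y-A (edgeR, adjusted p = 0.497). *RAB5C*, of early endosomes, had 0.12 ± 0.15 (edgeR, adjusted p = 0.999). The partner chain beta-2 microglobulin was not analysed here, as its name heads no row of the table used.

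Downstream of the activating receptors, genes passed in both comparisons with pregnancy. Of 25 named kinases, adaptors and enzymes of this signalling path, 20 had a row, and 0 of them passed in Y-E vs. Y-A with edgeR or DESeq2, where 6 were higher and 0 lower at an unadjusted p under 0.05. Over all tested genes that comparison had 900 with an unadjusted p under 0.05, and DESeq2 called 65. In Y-P vs. Y-E, 11 fell, 1 rose and 8 did not pass, with a median of −0.37 beside 0.04 over all tested genes, of which 8.68% were called lower and 5.77% higher. *GAB2*, an adaptor for phosphatidylinositol 3-kinase, went from 355 ± 102 CPM at estrus to 119 ± 17.9 CPM at pregnancy (SD, n = 6 each), a log2 fold change of −1.58 ± 0.17 (edgeR, adjusted p = 0.000188). The Src family kinase *FGR* went from 1220 ± 277 to 605 ± 58.4 CPM, with −1.01 ± 0.14 (edgeR, adjusted p = 0.000352). *CBL*, a ubiquitin ligase, fell by 1.07 ± 0.17 (edgeR, adjusted p = 0.000800). The one that rose was *LAT*, an adaptor of T cells and mast cells, by 0.50 on the log2 scale, from 65.5 ± 6.04 to 92.3 ± 19.3 CPM.

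Against anestrus, 3 of the 20 genes of the activating path fell at pregnancy and 1 rose, beside 3.61% and 2.22% of all tested genes. They were *GAB2* with −1.02 ± 0.17 (edgeR, adjusted p = 0.00341), *CBL* with −0.75 ± 0.17 (edgeR, adjusted p = 0.0176), *FGR* with −0.63 ± 0.14 (edgeR, adjusted p = 0.0166) and *LAT* with 0.54 ± 0.14 (edgeR, adjusted p = 0.0303). Of the neutrophil markers, 4 fell in Y-P vs. Y-E and 0 of 6 passed in Y-P vs. Y-A (1 lower with DESeq2 and 1 at an unadjusted p under 0.05). With the block, 5 neutrophil and 2 monocyte markers fell in Y-P vs. Y-E and 1 of each in Y-P vs. Y-A. Of all 14508 tested genes, the block called 1561 and 801 lower, in that order. Without the block, 2 T cell markers rose in each of these comparisons, beside 5.77% and 2.22% of all tested genes called higher. The part of these cells in the values of the activating path was not tested. Scaling by library size alone shifted the median of all genes to 0.19 in Y-P vs. Y-A and 0.18 in Y-P vs. Y-E, and under it 6 genes of the activating path fell and 3 rose in Y-P vs. Y-E. Of all 14508 tested genes, 758 were lower and 1795 higher in Y-P vs. Y-E under that scaling.

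Inhibitory genes and genes of engulfment also passed in part. Of 15 genes that restrain Fc receptor signals, 11 had a row, 3 of which fell and 1 of which rose in Y-P vs. Y-E. *DOK1*, an adaptor that recruits a brake on Ras, fell by 0.62 ± 0.11 (edgeR, adjusted p = 0.00165), from 77.9 ± 11.5 to 50.8 ± 5.57 CPM, and fell also in Y-P vs. Y-A by 0.44 ± 0.11 (edgeR, adjusted p = 0.0269). Its relative *DOK2* fell by 0.50 ± 0.15 (edgeR, adjusted p = 0.0349, and 0.0557 without Y-E replicate 6), the kinase *CSK* fell by 0.34 ± 0.11 (edgeR, adjusted p = 0.0448) and the phosphatase *PTPN11* rose by 0.28 ± 0.09 (edgeR, adjusted p = 0.0350). Of 17 measured genes of the phagocytic cup, the adaptor *CRKL* with −0.80 ± 0.25 (edgeR, adjusted p = 0.0389) and the GTPase *RAC1* with −0.37 ± 0.12 (edgeR, adjusted p = 0.0432) fell in Y-P vs. Y-E. These 2 of 17 were close to the 8.68% of all tested genes called lower, so the count says nothing particular to that list. With edgeR and with DESeq2, 0 of them passed in the other comparisons, where 2 were higher in Y-E vs. Y-A and 1 in Y-P vs. Y-A at an unadjusted p under 0.05. Under scaling by library size alone, *PTPN11* was still higher, while 1 inhibitory gene fell and 0 genes of the phagocytic cup did. Of all 14508 tested genes, that scaling gave 758 lower and 1795 higher in Y-P vs. Y-E.

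The KEGG annotation of the deposited table gave wider sets. Of 103 genes annotated to Fc gamma receptor-mediated phagocytosis, the members apart and all but 2 of them tested, 19 fell and 1 rose in Y-P vs. Y-E, 4 fell and 1 rose in Y-P vs. Y-A, and 0 passed in Y-E vs. Y-A. Of all tested genes, 8.68% were lower and 5.77% higher in Y-P vs. Y-E, and 3.61% lower and 2.22% higher in Y-P vs. Y-A, so that the counts of the latter comparison were close to or under those of all genes. With the block, 21 fell and 5 rose in Y-P vs. Y-E, and 4 fell and 4 rose in Y-P vs. Y-A. Over all tested genes the block gave 1561 lower and 1047 higher, and 801 lower and 481 higher, in that order. The fallers included *LIMK2*, a kinase of actin turnover, with −1.16 ± 0.18 (edgeR, adjusted p = 0.000769) and the adaptor *GAB3* with −0.90 ± 0.15 (edgeR, adjusted p = 0.00103). With library size scaling the first count became 9 fallen and 5 risen and the second 3 fallen and 6 risen, so that the majority in Y-P vs. Y-A turned with the scaling. Among all 14508 tested genes the majority turned in both comparisons. Under that scaling 758 were lower and 1795 higher in Y-P vs. Y-E, and 258 lower and 1075 higher in Y-P vs. Y-A. Of 69 tested genes annotated to Fc epsilon RI signalling, 18 fell and 1 rose in Y-P vs. Y-E, which became 7 and 3. In Y-P vs. Y-A, 3 fell and 1 rose, which became 2 and 5, and 3 and 5 with the block. Both sets share genes such as *GAB2*, and their medians of −0.14 and −0.08 in Y-P vs. Y-E lay below the 0.04 of all tested genes.

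**Figure D5:**
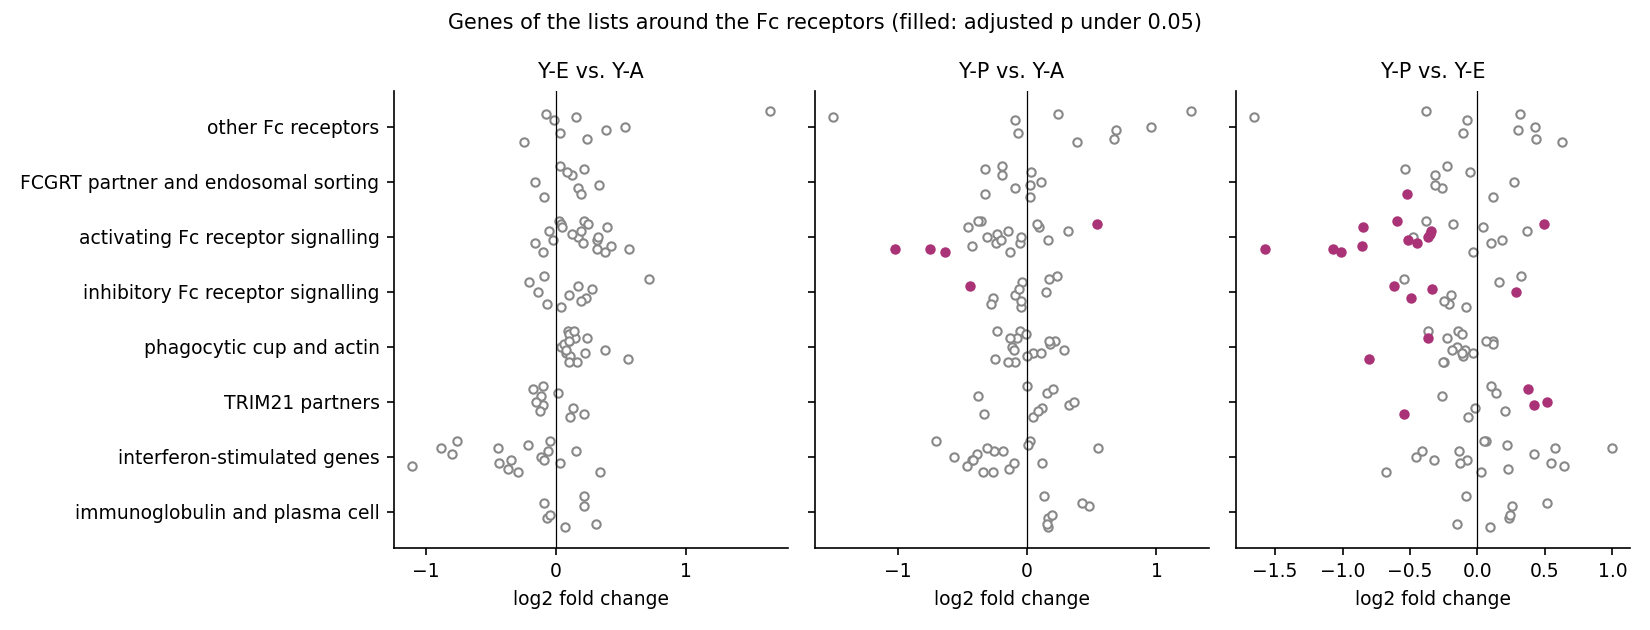
Log2 fold change (horizontal axis) of the tested genes of 8 lists around the Fc receptors in each comparison, one point a gene, filled where the adjusted p was under 0.05 in the edgeR fit and the points of a list set apart vertically only to be seen. No point is filled in Y-E vs. Y-A, and in Y-P vs. Y-E 11 filled points of activating signalling lie below 0 and 1 above.

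*TRIM21* works with other proteins of the cytosol. Of 14 such names, 10 had a row, and 3 rose and 1 fell in Y-P vs. Y-E. The shares of all tested genes were 5.77% higher and 8.68% lower. Without the block 0 passed with edgeR in the other comparisons, and with it 1 was lower in Y-P vs. Y-A, which was lost when Y-E replicate 6 was left out. Without the block, 3 were higher and 2 lower in Y-P vs. Y-A at an unadjusted p under 0.05, and DESeq2 called 1 each way. Scaling by library size alone gave 4 risen and 0 fallen in both comparisons with pregnancy. Of all 14508 tested genes it gave 1075 higher and 258 lower in Y-P vs. Y-A, and 1795 and 758 in Y-P vs. Y-E. *PSMD14*, a deubiquitinase of the proteasome, rose by 0.51 ± 0.11 (edgeR, adjusted p = 0.00515), from 25.0 ± 3.15 to 35.7 ± 5.18 CPM. *DAXX* rose by 0.37 ± 0.09 (edgeR, adjusted p = 0.0112), and *IRF8*, a transcription factor of the interferon response, by 0.42 ± 0.13 (edgeR, adjusted p = 0.0400). The ubiquitin-conjugating enzyme *UBE2W* fell by 0.54 ± 0.16 (edgeR, adjusted p = 0.0252). Without Y-E replicate 6 the last 2 no longer passed (edgeR, adjusted p = 0.0714 for *IRF8* and 0.0563 for *UBE2W*). Interferon-stimulated genes, of which *TRIM21* is one, gave 0 passing of 17 tested in all 3 comparisons with edgeR, with and without the block (1 higher in Y-P vs. Y-E with Y-E replicate 6 left out of the blocked fit), where 1 was higher and 1 lower at an unadjusted p under 0.05 in Y-P vs. Y-E and DESeq2 called 1 as lower there. The medians were −0.29 in Y-E vs. Y-A, −0.26 in Y-P vs. Y-A and 0.05 in Y-P vs. Y-E. *IFIT3* of that list had a log2 fold change of 0.34 ± 0.33 in Y-E vs. Y-A and −0.68 ± 0.33 in Y-P vs. Y-E (edgeR, adjusted p = 0.999 and 0.175). Genes of antibody-secreting cells gave 0 of 7 with DESeq2 and with edgeR without the block, with 0 at an unadjusted p under 0.05. With the block *DERL3*, of protein breakdown in the endoplasmic reticulum, rose in Y-P vs. Y-E by 0.52 (edgeR, adjusted p = 0.0317, and 0.263 without the block), and 0 of the 7 passed when Y-E replicate 6 was left out of that fit. *XBP1*, a transcription factor of plasma cells, had 0.24 ± 0.12 in Y-P vs. Y-E (edgeR, adjusted p = 0.194).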

How the data were processed

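RNA of whole blood was sequenced in 18 libraries (3 stages, 6 each). The authors trimmed the reads with cutadapt 1.9, aligned them with HISAT2 2.2.1 to *Bos grunniens* (Ensembl) and estimated FPKM, fragments scaled by exon length and depth, with StringTie 2.1.6. They also deposited whole-number counts, not normalized. How the counts were made, and whether by strand, is not given in the sources used here. Per the labels, the second strand carried dUTP and was treated with UDG, while the paper names a kit without a word on strand. Columns were mapped to libraries by name. 

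Counts were tested with edgeR 4.0.16 in R 4.3.3 (TMM, filterByExpr, quasi-likelihood fit on stage over all libraries, two-sided), with Benjamini-Hochberg adjustment over the 14508 tested genes. A gene passed at an adjusted p under 0.05. CPM were computed after TMM from the counts (factors 0.871 to 1.12), and the likeness used log2(CPM + 0.5). SDs and SEs are between libraries. The smallest library held 30247267 counts, and *FCGR1A*, the lowest member, had at least 32 counts in each library. The fits were tested on simulated data. The members and lists were chosen with earlier results of these data known. Named were the members, up to 4 genes a list and comparison with the smallest adjusted p, otherwise among the 2 of the highest mean FPKM, genes overlapping a member, and 5 genes by likeness. Others are marked. Alternatives used limma 3.58.1, DESeq2 1.42.0, other scalings and filters, and single libraries left out. Python 3.11.15, scipy 1.17.1 and matplotlib 3.10.9 served for exact tests and plots. RefSeq names of another build served only for neighbours. No sequence is printed, as no genome was used here. A few genes that the rule would name are not reported here.

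The replicate numbers were taken to mark cows, because the study followed the blood of the same animals. The deviations from the stage means of same-numbered libraries correlated by 0.112 to 0.653 between Y-A and Y-E (over 0.1 in 6 of 6 pairs), by −0.0715 to 0.484 between Y-A and Y-P (4 of 6) and by −0.0819 to 0.492 between Y-E and Y-P (4 of 6).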

Additional observations from a re-analysis of the deposited data

Results flagged for a closer look

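Among the 15 groups formed by 5 genes and 3 stages, 1 library stood far from the others of its group: *FCGR1A* in Y-A replicate 1, at 5.72 CPM, while the other 5 Y-A libraries lay between 1.28 and 2.30 CPM. Its gap to the nearest library made up 0.769 of the range of the group, above the Dixon critical value of 0.625 for 6 values. Chance alone gives such a gap in about 1 of 20 groups. Without this library the log2 fold change of *FCGR1A* in Y-E vs. Y-A was 0.50, against 0.06 with it, and 0.43 against −0.01 in Y-P vs. Y-A.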

How the results depend on the processing

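The members' log2 fold changes under the alternatives, 150 values and 270 more without 1 library, all differed from those given by less than 1 SD between libraries. All are refits of the same libraries, and the measure is wide for variable genes. The *FCGR1A* value in Y-E vs. Y-A stayed within it while moving from 0.06 to 0.50 without Y-A replicate 1. *FCGRT* was called in Y-E vs. Y-A and in Y-P vs. Y-E in each of the 29 fits and in Y-P vs. Y-A in 0. It was selected on its level at estrus in these same libraries, which all the fits reuse. Its calls are therefore a description and no independent support. *FCMR* was called in 4 of 29 in Y-P vs. Y-A (the limma and blocked fits) and in 9 of 29 in Y-P vs. Y-E (these, library size scaling, DESeq2, and the fits without Y-A replicate 4, Y-E replicate 4 or Y-P replicate 6). The number of genes called by both thresholds moved more: in Y-E vs. Y-A from 2 to 9 with DESeq2, 11 with the replicate block and 34 with that block and Y-E replicate 6 left out (chosen after seeing the data), and from 2 to 18 over the fits without 1 library (18 without Y-E replicate 6 and 4 without Y-A replicate 1). In Y-P vs. Y-A it went from 208 to 128 with limma on log2(FPKM + 1) and 343 on log2(FPKM + 0.1), and from 110 to 229 without 1 library (110, 134 and 136 without Y-P replicates 2, 4 and 5). In Y-P vs. Y-E it went from 387 to 143 with limma on log2(FPKM + 1), and from 289 to 476 without 1 library. The cause was not tested. Scaling by library size turned the split of these calls in Y-P vs. Y-A from 50 higher and 158 lower to 145 and 116, and in Y-P vs. Y-E from 65 and 322 to 137 and 196. Of the list counts, 113 moved by over 1.5 times and 487 did not under other alternatives, and 90 moved and 990 did not without 1 library. The replicate block, which pairs libraries taken to be of the same cow, changed no call of a member beyond those of *FCMR* and *FCRLA* given above. Among the members, *FCGR1A* had the fewest counts and the widest errors.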

Other observations

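Close to *FCRLA*, which has *FCGR2B* as a neighbour in RefSeq on another build, lie 3 rows without a gene name. They carry KEGG annotation of phagocytosis or the phagosome. Their KEGG entries, K12560, K06472 and K06463, are those of Fc gamma receptors. Which receptor gene each row stands for was not resolved here. These 3 rows were singled out after the annotation was seen. ENSBGRG00000001884 (chromosome 3, minus strand, 9572850 to 9581038) was more abundant than any of the 5 genes, with 232 ± 73.6 FPKM at anestrus, 225 ± 60.4 FPKM at estrus and 215 ± 60.1 FPKM at pregnancy (SD, n = 6 each). ENSBGRG00000001772 (plus strand, 9534070 to 9663051) had 22.3 ± 3.89, 26.4 ± 3.62 and 27.1 ± 4.11 FPKM. Its span holds ENSBGRG00000001884 on the opposite strand. Whether reads of the latter were counted to it is not known, since the strand setting of the counts is not given. ENSBGRG00000001856 (plus strand, 9539786 to 9543591), which also lies inside ENSBGRG00000001772, had 1.88 ± 0.70, 1.88 ± 0.60 and 1.39 ± 0.45 FPKM. None of the 3 passed in any comparison (edgeR, smallest adjusted p = 0.145, for ENSBGRG00000001856 in Y-P vs. Y-E).

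The lists of other blood cells gave these values. The summed medians were 89.3, 86.1 and 69.9 CPM for dendritic cell markers in Y-A, Y-E and Y-P, 331, 331 and 199 CPM for platelet markers, 537, 716 and 882 CPM for eosinophil and basophil markers and 32.7, 27.4 and 11.6 CPM for endothelial markers. Most of the endothelial sum came from 1 gene, *VWF*, with medians of 28.5, 20.8 and 6.98 CPM in the same order. Of the platelet genes *TUBB1* fell in Y-P vs. Y-E by 1.25 ± 0.19 (edgeR, adjusted p = 0.000556), and of the reticulocyte genes *HBM*, a hemoglobin gene, went from 57.6 ± 28.8 CPM at anestrus to 0.322 ± 0.286 CPM at pregnancy (SD, n = 6 each, edgeR, adjusted p = 0.000586).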
